A study of Mus musculus with 6 samples.

Results

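Integrins are adhesion receptors made of 1 alpha and 1 beta subunit, and 10 of their genes that serve macrophages and matrix adhesion were followed in resting bone-marrow-derived macrophages (BMDMs). The genes were taken by symbol: *Itgam*, *Itgax*, *Itgal*, *Itgb2*, *Itga4*, *Itga5*, *Itgav*, *Itgb1*, *Itgb3* and *Itgb5*. All 10 were among the 22248 genes listed, and all 10 passed the filter of a mean FPKM of at least 1 that left 11687 genes to test. FPKM is the number of sequenced fragments per kilobase of transcript, scaled to the size of the library. The control group is 3 libraries of *Lyz2*cre mice, and the CITED2-deficient group is 3 libraries of *Cited2* fl/fl:*Lyz2*cre mice, all of the C57BL/6 strain. The labels put the mice at postnatal week 10, while the study's methods give a younger age. All 6 libraries carry Cre recombinase made from the *Lyz2* locus, which is active in myeloid cells, so the groups differ by the floxed *Cited2* allele. Both groups were in the resting state, and no stimulus is named for either. Neither the labels nor the methods tie a library to a separate animal or culture, so the p-values measure the spread between these libraries, which may be technical.

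The beta 2 subunit pairs in leukocytes with the alpha M, alpha X and alpha L subunits and binds complement fragments and cell adhesion molecules of the ICAM family. The beta 1 subunit pairs with alpha 4, which binds VCAM1 and fibronectin, and with alpha 5, the classical fibronectin receptor. The alpha V subunit pairs with beta 3 and beta 5 to bind matrix proteins that carry an RGD motif, such as vitronectin and osteopontin. Integrins switch between inactive and active forms, so the RNA level of a subunit does not give the activity of the receptor.

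*Cited2*, the targeted gene, had 71.7, 79.3 and 75.5 FPKM in control replicates 1 to 3 and 9.27, 7.22 and 7.53 FPKM in CITED2-deficient replicates 1 to 3, so each library fitted its label. The depth was 17289286 to 18952076 fragments in the control libraries and 22583995 to 26100409 in the CITED2-deficient libraries. Across all tested genes, 1950 (16.7%) were higher and 4044 (34.6%) lower in CITED2-deficient BMDMs at an adjusted p under 0.05 (limma on log2(FPKM + 1), Benjamini-Hochberg adjustment, no fold threshold). After median-ratio scaling, which sets the typical gene equal between libraries, 2696 genes were higher and 2490 lower, and the median over all tested genes of the log2 fold change moved from -0.10 to -0.0069. CITED2-deficient replicate 1 stood apart in 12 genes that mark fibroblasts or stromal cells, whose summed FPKM was 713 there, 287 and 297 in the other CITED2-deficient libraries, and 77.3 to 94.4 in control BMDMs. In bulk libraries, fewer cells of a type and less RNA per cell cannot be told apart.

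Of the 10 integrin genes, 7 were higher and 2 lower in CITED2-deficient BMDMs, and *Itgb3* did not pass the threshold, against a background of 51.3% of all tested genes past the threshold, 16.7% higher and 34.6% lower. The control and CITED2-deficient libraries did not overlap for the same 9 genes, while 59.9% of all tested genes were without overlap, 19.0% higher and 40.9% lower. The median log2 fold change of the 10 genes was 0.22, beside -0.10 for all tested genes. After median-ratio scaling it was 0.32, with 7 genes higher and 1 lower (*Itgam*, while *Itgb5* no longer passed), beside 23.1% of all tested genes higher and 21.3% lower. Only *Itgam* and *Itga5* also reached a fold change of 1.5 with no overlap, a mark that 13.1% of all tested genes reached, 7.3% higher and 5.81% lower. Without CITED2-deficient replicate 1, again 7 of the genes were higher and 2 lower. The summed FPKM of the 10 genes was 1238 to 1246 in control BMDMs against 1339 to 1374 in CITED2-deficient BMDMs.

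**Figure D1:**
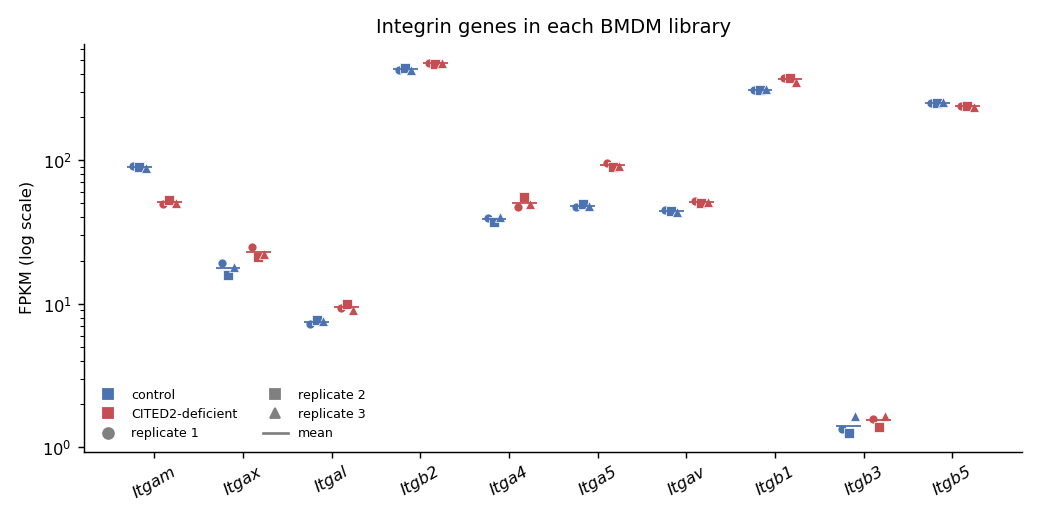
FPKM of the 10 integrin genes on a log axis in each of the 3 control and 3 CITED2-deficient libraries, with a line at the mean of each group. *Itgam* fell from a mean of 89.7 to 50.9 and *Itga5* rose from 48.2 to 92.6, so the order of these genes was exchanged, while the groups overlap for *Itgb3*.

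*Itgam* (ENSMUSG00000030786) encodes the alpha M subunit CD11b of complement receptor 3, which takes up particles coated with the complement fragment iC3b. It lies on chromosome 7 at 128062640 to 128118491 in mm10, on the plus strand, with *Itgax* next to it on the same strand after a gap of 11055 bases. The promoters of both genes are shown because these neighbours moved in opposite directions, and that of *Itga5* because this gene rose most among the 10. Each run is the 250 bases before the RefSeq start of the gene in GRCm38.p6, read 5′ to 3′ on the strand of the gene. Capitals mark matches on either strand to GAGGAA (the core bound by PU.1 and other ETS factors), TGANTCA (AP-1), GGGCGG (Sp1) or CCAAT.
*Itgam*, chr7:128062390-128062639, plus strand: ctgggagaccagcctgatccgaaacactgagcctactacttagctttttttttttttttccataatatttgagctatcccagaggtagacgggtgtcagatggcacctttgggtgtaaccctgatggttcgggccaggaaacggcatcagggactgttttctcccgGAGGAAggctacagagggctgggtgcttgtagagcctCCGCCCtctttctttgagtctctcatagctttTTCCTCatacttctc
*Itgax*, chr7:128129300-128129549, plus strand: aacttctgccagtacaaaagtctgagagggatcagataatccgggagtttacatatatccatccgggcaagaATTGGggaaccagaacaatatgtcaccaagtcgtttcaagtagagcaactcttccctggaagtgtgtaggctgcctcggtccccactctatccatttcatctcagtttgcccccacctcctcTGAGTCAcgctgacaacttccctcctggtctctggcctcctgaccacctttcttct
*Itga5*, chr15:103366792-103367041, minus strand: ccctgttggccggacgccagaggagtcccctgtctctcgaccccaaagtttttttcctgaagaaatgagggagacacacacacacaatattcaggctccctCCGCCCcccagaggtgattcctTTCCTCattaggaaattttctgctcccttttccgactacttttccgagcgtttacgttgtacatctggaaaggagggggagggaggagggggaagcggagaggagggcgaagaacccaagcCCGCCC

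The *Itgam* promoter held GAGGAA at -84 and, on the reverse strand, at -15, where positions give the leftmost base of a match in the printed run, counted back from -1 at its last base. It also held GGGCGG at -47 on the reverse strand. The *Itgax* promoter held TGANTCA at -56 and CCAAT at -178 on the reverse strand, and neither GAGGAA nor GGGCGG. The *Itga5* promoter held GGGCGG at -149 and -6 and GAGGAA at -127, all on the reverse strand. Among 32851 promoter windows of the same 250 bases, 23.3% held GAGGAA, 6.75% TGANTCA, 32.7% GGGCGG and 33.8% CCAAT. The STAT motif TTCNNNGAA (7.02% of windows) and the core of the interferon-stimulated response element (2.98%) were searched too, and these letters were absent from the windows of the 7 integrin genes with an entry. The motifs were chosen after the data had been seen, they do not overlap one another in these 3 windows, and a match describes letters only. *Itgal*, *Itgb2* and *Itgb3* had no entry.

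The subunits of the beta 2 family moved unequally. *Itgam* had 90.6, 89.4 and 89.0 FPKM in control replicates 1 to 3 and 49.2, 52.6 and 50.7 FPKM in CITED2-deficient replicates 1 to 3. Every CITED2-deficient library was far below every control library, at 89.7 ± 0.865 against 50.9 ± 1.69 FPKM (SD, n = 3 each). The gene fell by 0.81 on the log2 scale (standard error, SE, 0.04, limma adjusted p = 1.77e-07), or 1.76-fold in mean FPKM, and the value was -0.70 after median-ratio scaling. Leaving out each library in turn gave -0.83 to -0.78. It held rank 329 of the 11687 tested genes, counted from the largest fall. An annotated gene on the same strand, *Gm49368*, shares 3450 of the 5024 exonic bases of *Itgam* (68.7%), and it had 0 to 7 fragments in a library, while *Itgam* had 3375 to 4865. The sources used here do not say how fragments that fit both genes were assigned.

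*Itgax* (ENSMUSG00000030789), at 128129547 to 128150657 on chromosome 7, encodes the alpha X subunit CD11c of complement receptor 4, which also marks dendritic cells. Its FPKM was 19.3, 15.9 and 17.9 in control BMDMs and 25.0, 21.2 and 22.3 in CITED2-deficient BMDMs. The lowest CITED2-deficient library lay above the highest control library, and the gene rose by 0.35 (SE 0.08, limma adjusted p = 0.00616). In both groups replicate 1 was the highest, and 424 to 976 fragments stood behind a value. Without CITED2-deficient replicate 1 the log2 fold change was 0.28 (limma adjusted p = 0.0204). None of the 7 markers of dendritic cells reached the mean of 1 FPKM needed for testing, and their summed FPKM was 1.02 to 1.44 in control BMDMs against 3.90 to 4.25 in CITED2-deficient BMDMs, whose part in the rise of *Itgax* was not tested.

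*Itgal*, at 127296260 to 127335138 on chromosome 7, encodes the alpha L subunit CD11a of the receptor LFA-1, which binds ICAM proteins on other cells. Its FPKM was 7.21, 7.67 and 7.54 in control BMDMs and 9.35, 9.90 and 9.05 in CITED2-deficient BMDMs. The groups did not overlap, and the gene rose by 0.30 (SE 0.07, limma adjusted p = 0.00469). It lies 727501 bases before *Itgam* on the same chromosome.

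*Itgb2*, at 77530252 to 77565708 on chromosome 10, encodes CD18, the beta chain that all 3 of these alpha chains share. It had the highest FPKM of the 10 genes in every library, with 426, 443 and 429 in control BMDMs and 481, 470 and 477 in CITED2-deficient BMDMs. The rise was small beside that of *Itgax* and *Itgal* but larger than the spread between replicates (log2 fold change 0.14, SE 0.03, limma adjusted p = 0.00232). *Itgad*, the alpha D gene next to *Itgax*, had a mean of 0.813 FPKM in control and 0.508 FPKM in CITED2-deficient BMDMs and was too low to be tested.

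Of *Itga4*, *Itga5* and *Itgb1*, which encode receptors of fibronectin and VCAM1, *Itga5* had the largest log2 fold change. This gene, at 103344286 to 103366763 on chromosome 15 on the minus strand, encodes the alpha 5 subunit CD49e. Its FPKM was 47.0, 49.3 and 48.3 in control BMDMs and 96.5, 90.5 and 90.8 in CITED2-deficient BMDMs. Every CITED2-deficient library was above every control library, and the means were 48.2 ± 1.16 and 92.6 ± 3.36 FPKM (SD, n = 3 each), a 1.92-fold difference. The log2 fold change was 0.93 (SE 0.04, limma adjusted p = 1.15e-07), at rank 497 of the tested genes from the largest rise. CITED2-deficient replicate 1, the library with the highest stromal markers, had the highest *Itga5*, and without it the log2 fold change was 0.90 (limma adjusted p = 5.52e-07).

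*Itga4*, at 79255426 to 79333123 on chromosome 2, encodes the alpha 4 subunit CD49d. It had 39.8, 36.9 and 40.2 FPKM in control BMDMs and 46.9, 55.9 and 49.3 FPKM in CITED2-deficient BMDMs. The groups did not overlap, although the CITED2-deficient libraries were spread widely (50.7 ± 4.64 FPKM, SD, n = 3), and the gene rose by 0.37 (SE 0.07, limma adjusted p = 0.00136). *Cerkl* on the opposite strand shares 8.04% of the exonic bases of *Itga4*, and its mean was 1.09 FPKM in control and 1.20 FPKM in CITED2-deficient BMDMs.

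*Itgb1*, at 128685654 to 128733200 on chromosome 8, encodes the beta 1 subunit CD29, the partner of alpha 4, alpha 5 and many other alpha chains. It was second to *Itgb2* in every library, with 310, 308 and 312 FPKM in control BMDMs and 372, 375 and 351 FPKM in CITED2-deficient BMDMs. All CITED2-deficient libraries were higher, by 0.24 on the log2 scale (SE 0.03, limma adjusted p = 0.000240).

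Of the alpha V family, only *Itgav* rose. *Itgav*, at 83724397 to 83806916 on chromosome 2, encodes the alpha V subunit CD51, and it had 44.9, 44.2 and 43.9 FPKM in control BMDMs and 51.9, 50.7 and 51.2 FPKM in CITED2-deficient BMDMs. The replicates lay close together in both groups, and the log2 fold change was 0.20 (SE 0.03, limma adjusted p = 0.00102).

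*Itgb3*, at 104608000 to 104670476 on chromosome 11, encodes CD61, the beta chain of the osteoclast vitronectin receptor and of the platelet fibrinogen receptor. It was the lowest of the 10 genes in every library, with 1.33, 1.25 and 1.64 FPKM in control BMDMs and 1.57, 1.38 and 1.66 FPKM in CITED2-deficient BMDMs. The groups overlapped (log2 fold change 0.07, SE 0.13, limma adjusted p = 0.651), and 110 to 220 fragments stood behind a value.

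*Itgb5*, at 33829665 to 33949338 on chromosome 16, encodes the beta 5 subunit of a vitronectin receptor that also takes part in the uptake of dying cells. It had 251, 250 and 255 FPKM in control BMDMs and 241, 240 and 236 FPKM in CITED2-deficient BMDMs. The CITED2-deficient libraries were all lower, but the fold change of -0.08 (SE 0.03, limma adjusted p = 0.0298) turned to 0.02 (adjusted p = 0.486) after median-ratio scaling. The call was also lost on leaving out any single library, with the exception of CITED2-deficient replicate 1 (limma adjusted p = 0.0504 to 0.101).

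**Figure D2:**
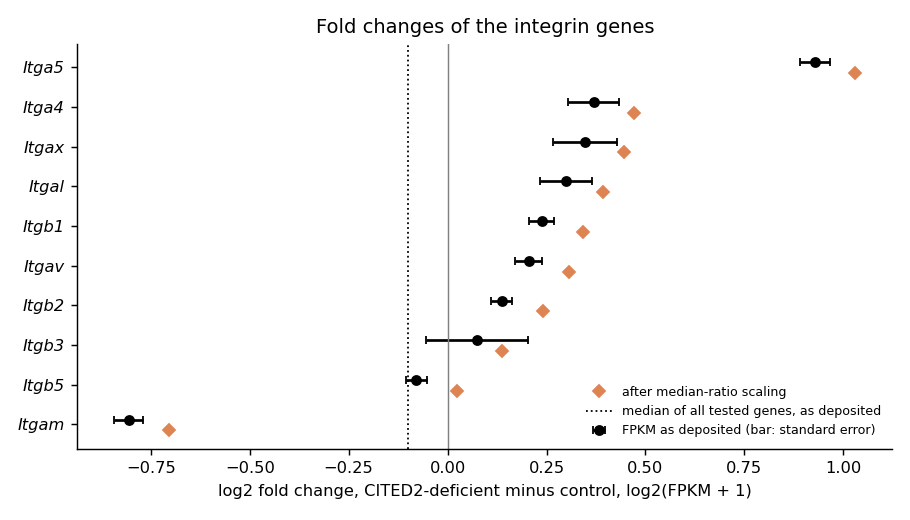
Log2 fold change of each integrin gene, CITED2-deficient minus control, on log2(FPKM + 1), with the standard error as a bar and the value after median-ratio scaling as a diamond. *Itga5* (0.93) and *Itgam* (-0.81) stand at the ends, and *Itgb5* is the gene whose sign turns with the scaling. The dotted line is the median of all tested genes.

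The order of the genes by mean FPKM differed between the groups. In control BMDMs it was *Itgb2*, *Itgb1*, *Itgb5*, *Itgam*, *Itga5*, *Itgav*, *Itga4*, *Itgax*, *Itgal* and *Itgb3*, and no neighbours in this order overlapped. In CITED2-deficient BMDMs *Itga5* and *Itgav* stood before *Itgam*, and the values of *Itgav*, *Itgam* and *Itga4* overlapped with those of their neighbours in the order. FPKM compares genes per length of the mean annotated transcript, which was 1432 bases for *Itgb5* and 5079 bases for *Itgb3*, so the order rests on that annotation. The place of *Itgam* may also depend on how fragments that fit *Gm49368* too were assigned.

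As a share of the summed FPKM of the 6 alpha subunit genes, *Itgam* made up 36.4% ± 0.336 in control BMDMs against 18.3% ± 0.580 in CITED2-deficient BMDMs (SD, n = 3 each). *Itga5* made up 19.6% ± 0.689 and 33.4% ± 1.19. Among these 6 genes, *Itgam* was thus the largest share in every control library and *Itga5* in every CITED2-deficient library. Other alpha subunit genes were left out of the sum, so these are not shares of all alpha subunit RNA. One of them, *Itga6*, had a mean of 80.4 FPKM in control and 87.4 FPKM in CITED2-deficient BMDMs. The share of *Itgav* was 18.0% and 18.5%, that of *Itga4* 15.8% and 18.3%, that of *Itgax* 7.19% and 8.21%, and that of *Itgal* 3.03% and 3.40%. These are shares of RNA and not of receptors on the cell surface. They may also depend on how fragments that fit both *Itgam* and *Gm49368* were assigned.

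**Figure D3:**
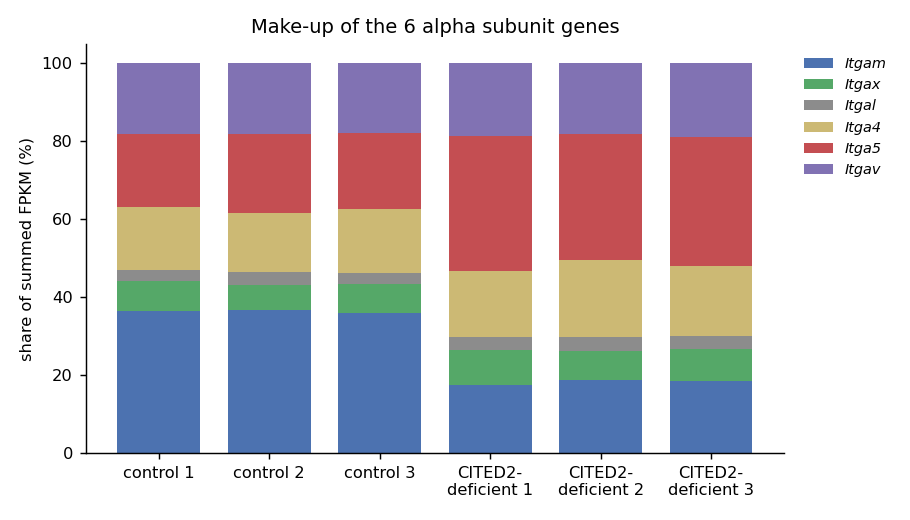
Share of each alpha subunit gene in the summed FPKM of the 6 alpha genes, in percent, for each library. The *Itgam* part is 36.4% on average in control BMDMs against 18.3% in CITED2-deficient BMDMs, and the *Itga5* part is 19.6% and 33.4%.

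Ratios between subunit genes were compared within each library, where scaling between libraries has no effect. The groups did not overlap for 7 of the 10 ratios tested. For each of these 7 the exact two-sided permutation test gave p = 0.1, the smallest that 3 against 3 libraries allow, with 0.143 after Benjamini-Hochberg adjustment over the 10 ratios, so no ratio could reach 0.05. Of the 11687 single genes, whose levels do depend on scaling between libraries, 59.9% were without overlap. The same share over ratios of other gene pairs was not computed, and several of the 10 ratios share a gene.

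Within the beta 2 family, *Itgax* per *Itgam* was 0.213, 0.178 and 0.201 in control BMDMs and 0.507, 0.402 and 0.439 in CITED2-deficient BMDMs, a log2 difference of 1.18 (SE 0.12). *Itgal* per *Itgam* was 0.0834 and 0.185 on average, a difference of 1.15 (SE 0.04). Both ratios were more than doubled in each CITED2-deficient library relative to the control mean, as the denominator fell while both numerators rose. The 3 alpha genes together per *Itgb2* averaged 0.266 and 0.175, a difference of -0.60 (SE 0.03).

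Within the beta 1 family, *Itga5* per *Itga4* was 1.18, 1.34 and 1.20 in control BMDMs and 2.06, 1.62 and 1.84 in CITED2-deficient BMDMs, a log2 difference of 0.56 (SE 0.11). *Itga4* per *Itgb1* overlapped between the groups, at 0.126 and 0.138 on average (difference 0.14, SE 0.08, exact permutation p = 0.3, adjusted 0.333). The sum of *Itga4*, *Itga5* and *Itgav* per *Itgb1* was 0.424 and 0.532, a difference of 0.33 (SE 0.02). This sum takes in *Itgav*, which is grouped here with the alpha V family, and leaves out other alpha genes such as *Itga6*. The mean of *Itga6* was 80.4 FPKM in control and 87.4 FPKM in CITED2-deficient BMDMs, a log2 fold change of 0.12. The ratio with *Itga6* in the sum was not computed.

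Within the alpha V family, *Itgb5* per *Itgav* was 5.69 and 4.66 on average, a log2 difference of -0.29 (SE 0.02) without overlap. *Itgb3* per *Itgav* overlapped (0.0318 and 0.0299, exact permutation p = 0.7), as did *Itgb5* per *Itgb3* (181 and 157, exact permutation p = 0.2, adjusted 0.25). *Itgb2* per *Itgb1* was 1.40 and 1.30, a difference of -0.10 (SE 0.04) without overlap. Without CITED2-deficient replicate 1, the difference was 1.09 for *Itgax* per *Itgam* and 0.48 for *Itga5* per *Itga4*.

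**Figure D4:**
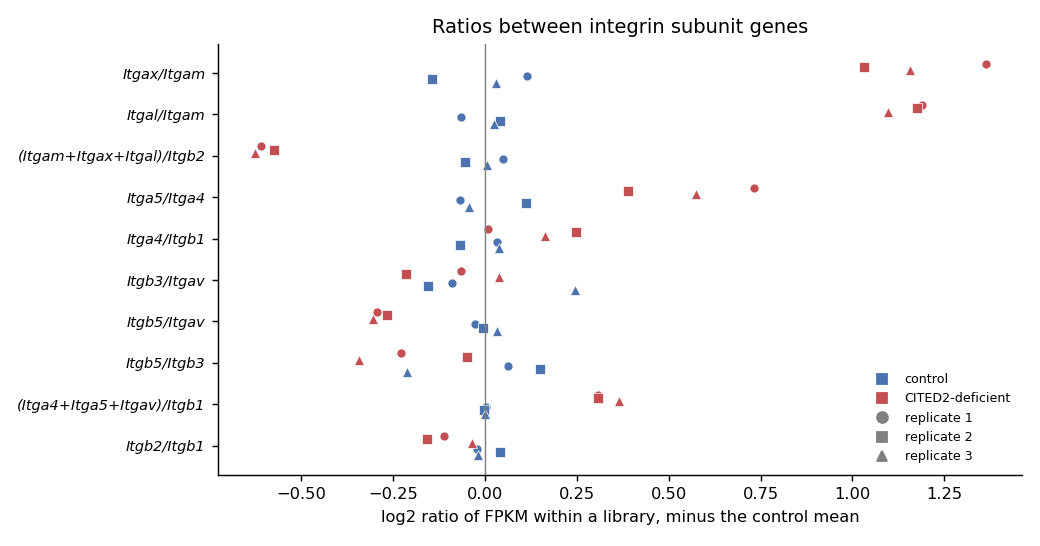
Log2 ratio of FPKM between integrin subunit genes within each library, minus the control mean of that ratio, for 3 control and 3 CITED2-deficient libraries. *Itgax*/*Itgam* (difference 1.18) and *Itgal*/*Itgam* (1.15) are farthest to the right, and the groups overlap for *Itga4*/*Itgb1*, *Itgb3*/*Itgav* and *Itgb5*/*Itgb3*.

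The genes whose pattern over the 6 libraries was most like that of *Itga5* were *Vim*, which encodes the filament protein vimentin (Pearson r = 0.999), *Id2*, an inhibitor of helix-loop-helix transcription factors (r = 0.999), and *Ugcg*, which encodes a glucosylceramide synthase (r = 0.998). The means of *Vim* were 424 and 811 FPKM, those of *Id2* 61.2 and 116 FPKM, and those of *Ugcg* 25.2 and 34.8 FPKM in control and CITED2-deficient BMDMs. The 6 points share 2 groups, and 1087 genes had an r above 0.95 with *Itga5*.

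Of 16 other integrin subunit genes, 4 were high enough to test, and 3 of these were higher and none lower in CITED2-deficient BMDMs. The background for this list and for the lists and markers below was 16.7% of all tested genes higher and 34.6% lower. *Itgb7*, whose product pairs with alpha 4 in leukocytes that home to the gut, had 18.0, 24.1 and 19.9 FPKM in control BMDMs and 44.8, 43.1 and 40.6 FPKM in CITED2-deficient BMDMs, with no overlap. It rose by 1.02 (SE 0.09, limma adjusted p = 1.94e-05), beside 0.37 for *Itga4* and 0.24 for *Itgb1*. *Itga2b*, the platelet partner of beta 3, rose by 0.38 and *Itga6*, a laminin receptor subunit, by 0.12. Without control replicate 1, and likewise without CITED2-deficient replicate 1, 1 gene of this list passed the threshold. *Itga9*, also able to pair with beta 1, did not pass (-0.09, adjusted p = 0.481).

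Of 14 cell-surface and plasma ligand genes, 4 were tested, and 3 were higher and 1 lower, beside 16.7% and 34.6% of all tested genes. *C3*, the complement protein whose fragment iC3b is bound by the alpha M and alpha X receptors, had a mean of 64.4 FPKM in control and 252 FPKM in CITED2-deficient BMDMs (log2 fold change 1.95, limma adjusted p = 9.03e-09). *Icam2* rose by 0.84 and *Icam1* by 0.35, and both encode ligands of LFA-1. *Vcam1*, a ligand of the alpha 4 receptor, had 7.13, 7.66 and 7.40 FPKM in control BMDMs and 3.85, 3.61 and 3.51 FPKM in CITED2-deficient BMDMs, and fell by 0.85 (limma adjusted p = 2.14e-05). *Vcam1* and *Itga4* thus moved in opposite directions.

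Of 22 matrix ligand genes, 17 were tested, and 16 were higher and 1 lower, with a median log2 fold change of 1.23. Over all tested genes, 16.7% were higher and 34.6% lower. The filter bears on the counts of this list. *Postn* (mean 0.394 FPKM in control and 3.47 FPKM in CITED2-deficient BMDMs) and *Fbn1* (0.871 and 3.38 FPKM) entered through the CITED2-deficient libraries. Among genes not tested, *Edil3* (1.25 and 0.503 FPKM) was lower and *Lama5* (0.437 and 1.00 FPKM) higher without overlap. *Fn1*, which encodes fibronectin, the ligand of alpha 5 beta 1, had 16.0, 14.5 and 16.2 FPKM in control BMDMs and 79.3, 58.9 and 55.8 FPKM in CITED2-deficient BMDMs (log2 fold change 1.97, limma adjusted p = 1.18e-06). The collagen gene *Col1a1* rose by 2.71, the thrombospondin gene *Thbs2* by 2.40 and *Ctgf*, which encodes connective tissue growth factor, by 1.63. *Tgfb1*, whose latent product binds alpha V integrins, fell by 0.30.

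The stromal markers moved with the matrix ligands, and *Col1a1* and *Postn* belong to both lists. All 10 of the stromal markers tested were higher, and *Lum* and *Thy1*, at under 1 FPKM in every library, were not tested. *Postn*, at a mean of 0.394 FPKM in control and 3.47 FPKM in CITED2-deficient BMDMs, passed the filter only through the CITED2-deficient libraries. *Col1a1* was 305, 62.0 and 62.6 FPKM in CITED2-deficient replicates 1 to 3, beside 14.2 to 16.6 FPKM in control BMDMs. The part of stromal cells in the rise of the matrix ligands, of *Itga5* or of the other integrin genes was not tested. Without CITED2-deficient replicate 1, 16 matrix ligand genes passed the threshold.

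Of 20 genes that act on integrins from inside the cell, 17 were tested, 5 were higher and 4 lower, with a median of -0.03. Together 9 of the 17 passed the threshold, near the share of 51.3% among all tested genes (16.7% higher, 34.6% lower). The talin gene *Tln1*, at a mean of 631 and 640 FPKM, and the kindlin-3 gene *Fermt3*, at 169 and 162 FPKM, did not pass the threshold, although *Tln1* was higher after median-ratio scaling (0.12, limma adjusted p = 0.00645). *Fermt2*, which encodes kindlin-2, rose by 1.52 from a mean of 2.89 to 10.4 FPKM. The filamin gene *Flna* rose by 0.18, the adaptor gene *Fyb* by 0.13 and the inhibitor gene *Dok1* by 0.12. *Rasgrp2*, which encodes an activator of the small GTPase Rap1, fell by 0.79, and *Crkl*, an adaptor gene, by 0.23. *Skap2* and *Apbb1ip*, which encode a partner of FYB and the Rap1 effector RIAM, both fell by 0.18 but did not pass after median-ratio scaling. With that scaling the list had 7 genes higher and 2 lower, beside 23.1% and 21.3% of all tested genes.

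Of 31 genes that signal from bound integrins, all were tested, 15 were higher and 7 lower, with a median of 0.12. Among all tested genes, 16.7% were higher and 34.6% lower. The parvin gene *Parva* rose by 1.14, *Bcar1*, which encodes the scaffold p130Cas, by 0.74, the kinase gene *Src* by 0.57 and *Ptk2b*, which encodes the kinase PYK2, by 0.40. *Ptk2b* was the most abundant of these 4, with 97.6, 93.2 and 95.2 FPKM in control BMDMs and 126 FPKM in each CITED2-deficient library. *Bcar1* had a mean of 0.974 FPKM in control BMDMs, on 35 to 59 fragments in a library. With a mean of 2.29 FPKM in CITED2-deficient BMDMs, *Bcar1* passed the filter through that group. *Tns1*, which encodes the adhesion protein tensin 1, fell by 1.16 from a mean of 51.5 to 22.5 FPKM (limma adjusted p = 9.08e-08). *Arhgef7* and *Arhgef6*, which encode exchange factors of the PIX family for RAC and CDC42, fell by 0.51 and 0.37. *Git2*, which encodes their binding partner, fell by 0.21 but did not pass after median-ratio scaling. With that scaling 18 genes of this list were higher and 3 lower, beside 23.1% and 21.3% of all tested genes.

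Of 8 membrane partner genes, all were tested, 4 were higher and 2 lower, beside 16.7% and 34.6% of all tested genes. *Cd47*, whose product associates with alpha V beta 3, had 184, 185 and 189 FPKM in control BMDMs and 256, 265 and 254 FPKM in CITED2-deficient BMDMs and rose by 0.47 (limma adjusted p = 1.62e-06). The caveolin gene *Cav1* rose by 1.24, the syndecan gene *Sdc1* by 0.72 and *Slc3a2*, which encodes CD98 heavy chain, by 0.21. The tetraspanin gene *Cd81* fell by 1.16, from a mean of 161 to 71.7 FPKM. *Sdc4* fell by 0.08, and its sign turned to 0.02 after median-ratio scaling.

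**Figure D5:**
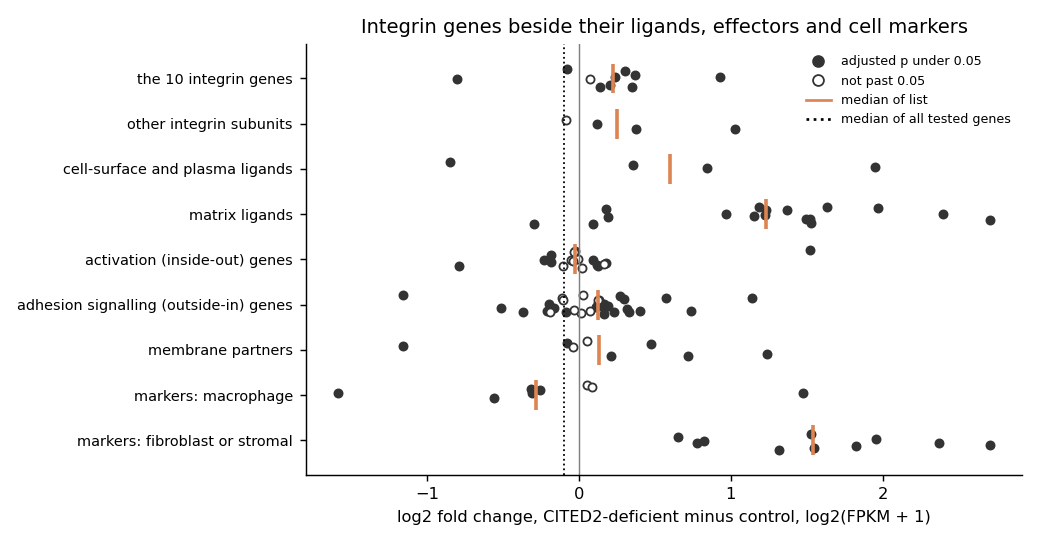
Log2 fold change of each tested gene, CITED2-deficient minus control, for the 10 integrin genes, the lists of related genes and the macrophage and stromal markers. Filled points passed an adjusted p of 0.05, bars are list medians, and the dotted line is the median of all tested genes at -0.10. The matrix ligands (median 1.23) and stromal markers (1.54) lie to the right of the integrin genes (0.22).

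The macrophage markers were present in every library, with a summed FPKM of 7359 to 7524 in control BMDMs against 6503 to 6591 in CITED2-deficient BMDMs. Of the 8, the Fc receptor gene *Fcgr1* was higher, and *Adgre1*, *Csf1r*, *Mertk*, *C1qa* and *Lyz2* were lower. *Cd68* and *Cd14* did not pass the threshold, although both were higher after median-ratio scaling (0.16 and 0.19 on the log2 scale). With that scaling 3 markers were higher and 5 lower, beside 23.1% and 21.3% of all tested genes. *Itgam* is itself used to mark myeloid cells. It moved in the direction of these 5 lower markers, and the part of a change in cell composition in its fall was not tested. Neutrophils carry alpha M beta 2 as well. Of 8 neutrophil markers tested, *Ltf* and *Retnlg* were higher, *S100a8*, *Ngp*, *Camp*, *Elane* and *Mpo* were lower and *S100a9* did not pass, with a summed FPKM over the list of 10 of 727 to 796 in control and 664 to 783 in CITED2-deficient BMDMs, and their part in the fall of *Itgam* was not tested. Osteoclast markers, of interest because *Itgb3* serves osteoclasts, had a summed FPKM of 186 to 204 in control and 243 to 251 in CITED2-deficient BMDMs. Of 4 tested, *Ctsk* and *Atp6v0d2* were higher, *Mmp9* was lower and *Acp5* did not pass, whereas after median-ratio scaling *Acp5* was higher as well and *Mmp9* did not pass, while *Oscar* was listed at 0 in all control libraries.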

How the data were processed

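The study profiled RNA of resting BMDMs in 6 libraries, 3 control and 3 CITED2-deficient, and groups and replicate numbers follow the sample titles. Ribosomal RNA was depleted and stranded libraries were sequenced. The authors state that they aligned them to mm10 by STAR and obtained FPKM with Cuffdiff. The deposited FPKM cover 22248 genes in each library. The sources used here do not give tool versions or the handling of overlapping genes. FPKM are divided by length and library size, so strongly changed genes can shift all others.

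The 11687 genes whose mean FPKM reached 1 entered limma 3.58.1 (R 4.3.3) as log2(FPKM + 1), with the variance following a trend, Benjamini-Hochberg adjustment over all tested genes and a threshold of 0.05. Since the mean was taken over both groups, a gene could enter through the group where it is high. Fold changes on this scale understate those of low genes. Cuffdiff needs alignments and was not rerun. The fit was tested on simulated data. Mean transcript lengths in GENCODE vM21 turned the FPKM into fragment numbers, and 96.1% of 22221 matched genes came within 0.02 of whole numbers in all 6 libraries. Libraries held 17289286 to 26100409 fragments. Replicates differed by more than sampling noise (mean chi-square per gene 2.26 to 5.87). Ratios within a library were compared by an exact two-sided permutation test with scipy 1.17.1 in Python 3.11.15.

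The members and lists were chosen with earlier results of these data known. The genes named are the 10 integrin genes, *Cited2*, in each pathway list up to 4 largest rises and up to 4 largest falls past the threshold, the 3 genes most like the member with the largest change, and macrophage, stromal and osteoclast markers. Genes named outside this rule, such as *Itga9*, *Itgad*, *Tln1*, *Fermt3*, the overlapping genes and other markers, were chosen after their values were seen. Promoters are from RefSeq (GRCm38.p6), with entries for 7 of the 10 genes. Alternatives were other pseudocounts (0.1, 0.5), no filter on low values, a minimum mean FPKM of 5, median-ratio scaling, quantile normalization, no variance trend, array weights, a replicate block, limma-voom on recovered fragments, a fold of at least 1.5 without overlap, ratios of FPKM + 1, and each library left out in turn.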

Additional observations from a re-analysis of the deposited data

How the results depend on the processing

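Apart from the added fold threshold given below, every integrin gene other than *Itgb5* kept its direction and its side of the threshold under all alternatives. *Itgb3* had no value at a mean FPKM of at least 5. *Itgb5* reversed to 0.025 after median-ratio scaling and did not pass with no variance trend (limma adjusted p = 0.123), so that 1 integrin gene was lower there. Genes lower numbered 2490 after median-ratio scaling. With a fold of at least 1.5 and no overlap, 1532 genes passed (853 higher, 679 lower), with 2 integrin genes (1 higher, 1 lower), 1 other integrin subunit, 2 activation genes, 3 adhesion signalling genes and 3 membrane partners. Leaving out each library in turn gave 5226 to 5467 genes, 8 to 9 integrin genes with 1 to 2 lower, and 1 to 3 other integrin subunits. *Itgb3* per *Itgav* ranged from -0.16 to 0.042 and reversed without control replicate 3, with overlap in the full data. The labels do not say whether the replicate numbers pair the samples, and no label names a shared litter or batch. Deviations of same-numbered libraries correlated at 0.0078 to 0.040, and those of differently numbered libraries at -0.052 to 0.035. With 3 libraries in a group these values cannot settle whether the samples are paired. With the replicate block 5708 genes passed, with 8 integrin genes, 1 of them lower, since *Itgb5* had an adjusted p of 0.0696 from limma. Ratios in same-numbered libraries could not go below an exact permutation p of 0.25. The number of libraries limits every exact test, and *Itgb3* rests on the fewest fragments of the 10 genes (110 to 220 in a library).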

Other observations

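Markers of further cell types were read for completeness. Both endothelial markers tested of 5 were higher, with a summed FPKM of 5.80 to 6.23 in control and 26.6 to 32.0 in CITED2-deficient BMDMs, with *Kdr* at a mean of 4.26 and 27.5 FPKM. Of 5 megakaryocyte markers, 2 were tested and 1, *Ppbp*, was higher, with sums of 3.18 to 4.75 and 5.21 to 6.37 FPKM. The platelet integrin gene *Itga2b* rose by 0.38 (limma adjusted p = 0.0300), on 49 to 137 fragments in a library. Of 5 B cell markers, 1 was tested and did not pass, and the sums were 2.14 to 3.29 and 2.07 to 2.82 FPKM. No T or NK cell, erythroid or mast cell marker was tested, since their means were under 1 FPKM, and their sums were 0.603 to 0.901, 0.207 to 1.34 and 1.23 to 2.08 FPKM in control BMDMs and 0.622 to 1.21, 0.0772 to 0.189 and 0.560 to 0.755 FPKM in CITED2-deficient BMDMs.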
